A study of Homo sapiens with 8 samples.

Results

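The CCAAT/enhancer-binding proteins (C/EBPs) are a family of transcription factors encoded in human by CEBPA, CEBPB, CEBPD, CEBPE and CEBPG. These 5 genes were selected by symbol from the 19158 genes measured in 8 RNA-seq libraries of A549, an established human lung adenocarcinoma epithelial cell line. Of these, 4 libraries came from untreated wells and 4 from wells given 1 µM dexamethasone, a synthetic glucocorticoid, for 48 h. The genotype was given as WT throughout, the medium was DMEM with glutamax and serum, and both groups carried the replicate numbers 1, 3, 4 and 5 and the same batch number. Each library was a separate well of this 1 line, so p-values measure the spread between wells only.

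C/EBPs are basic leucine zipper (bZIP) proteins: the zipper pairs 2 molecules into a dimer, and the basic region grips DNA at palindromic sites. C/EBPα is known for restraining the cell cycle and maintaining differentiated liver, fat, myeloid and lung epithelial cells. C/EBPβ and C/EBPδ are the inducible members, which are raised by cytokines and glucocorticoids and drive acute-phase and early fat-cell genes. C/EBPγ lacks a typical activation domain and acts mainly as a dimer partner, for instance of ATF4, and C/EBPε is restricted largely to granulocyte precursors. The CEBPB messenger is translated from several start codons into activating and inhibitory proteins, which a gene-level RNA value cannot separate.

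CEBPA, CEBPB and CEBPD are intronless genes, each a single exon with 1 annotated transcript, whereas CEBPE and CEBPG have 3 transcripts each. On GRCh38 the deposited coordinates place CEBPA (ENSG00000245848) at chr19:33299934-33302564 on the minus strand and CEBPG (ENSG00000153879) at chr19:33373330-33382686 on the plus strand, 70.8 kb apart. CEBPB (ENSG00000172216) lies at chr20:50190734-50192689 on the plus strand and CEBPE (ENSG00000092067) at chr14:23117304-23119616 on the minus strand. The 3 intronless genes and CEBPE are rich in G and C: the transcript GC content was 65.9% for CEBPA, 66.2% for CEBPB, 66.0% for CEBPD and 64.7% for CEBPE, which put them at the 97.0, 97.4, 97.1 and 95.3 percentiles of measured genes. CEBPG differs from them, with a GC content of 41.3% at the 20.5 percentile. CEBPA is overlapped on the opposite strand by 2 long non-coding genes (ENSG00000267580 and ENSG00000267727) and CEBPB by CEBPB-AS1. The strand setting of the counting is not given in the sources used here, so reads from these partners could not be told apart from those of the members.

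RefSeq promoter windows (GRCh38.p14, 250 bases before to 50 after an annotated start) were found for CEBPA (1 window), CEBPB (2), CEBPE (1) and CEBPG (2). The stretches before the first CEBPA and CEBPB starts are shown because these 2 genes moved in opposite directions after dexamethasone. Both are dense in G and C; the full windows held 80.7% GC for CEBPA and 77.0% for the first CEBPB window, against a median of 58.7% over all 35116 windows. The CEBPA stretch is chr19:33302565-33302784 on the minus strand and the CEBPB stretch is chr20:50190333-50190582 on the plus strand.
CEBPA: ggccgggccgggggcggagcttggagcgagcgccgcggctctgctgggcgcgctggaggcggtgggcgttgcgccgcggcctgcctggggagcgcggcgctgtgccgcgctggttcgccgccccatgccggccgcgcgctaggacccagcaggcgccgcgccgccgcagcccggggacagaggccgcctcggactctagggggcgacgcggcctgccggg
CEBPB: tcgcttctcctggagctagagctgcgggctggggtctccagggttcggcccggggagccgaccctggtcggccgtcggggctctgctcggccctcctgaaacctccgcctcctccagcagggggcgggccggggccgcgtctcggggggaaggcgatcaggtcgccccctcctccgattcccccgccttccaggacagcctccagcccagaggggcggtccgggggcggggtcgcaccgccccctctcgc

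A set of 8 motifs was searched on both strands of the 6 windows, and a match is only a match of letters. The palindromic glucocorticoid response element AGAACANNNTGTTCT occurred in 1 of all 35116 windows (0.00285%) and in 0 of the 6. The single hexamer AGAACA, which the full element contains on both strands, was in 14.8% of all windows and in 0 of the 6. The pattern TTGCNNCAA (1.98% of all windows) and the cAMP response element TGACGTCA (1.85%) were also in 0 of the 6. TTGCNNCAA does not read the same on both strands, so its search does not cover palindromic C/EBP sites. The TATA box TATAAA (11.5%) was in the CEBPA window and the second CEBPB window. The shorter cAMP-response motif TGACG (24.6%), which TGACGTCA contains, was in the second CEBPB window. CCAAT (34.6%) was in both CEBPB windows, where it is 1 site that the windows share, and in the first CEBPG window. The C/EBP-ATF composite site TGATGCAA (0.866%) was in the second CEBPG window. A selection of 4 of these matches is shown with the matched letters in capitals, at chr19:33302547-33302576 (minus strand) for CEBPA, chr20:50190761-50190790 and chr20:50190789-50190818 (plus strand) for CEBPB and chr19:33374060-33374089 (plus strand) for CEBPG.
CEBPA TATA box: cggcctgccgggTATAAAagctgggccggc
CEBPB TGACG match: gaggggccggcgTGACGcagcggttgctac
CEBPB TATA box: acgggccgccctTATAAAtaaccgggctca
CEBPG composite site: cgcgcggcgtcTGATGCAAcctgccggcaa

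The values are read as FPKM, fragments scaled to the size of the library and the length of the transcript, a per-length scale on which genes can be compared; this unit was inferred from the values. Fold changes are differences on the log2(FPKM + 1) scale after library scaling, tested with limma, and they understate the change of low genes. Of 12161 genes that passed a filter of 0.5 FPKM in at least 4 libraries, 3251 were called at an adjusted p under 0.05, with 1513 higher and 1738 lower, and the median log2 fold change was 0.01. Genes above 0 numbered 14798 to 15182 per library. The glucocorticoid targets FKBP5, TSC22D3 and PER1 were higher in all 4 dexamethasone libraries than in any untreated one, with log2 fold changes of 4.33, 3.87 and 1.94. Epithelial and lung markers were mixed: KRT18 read 805 to 1270 FPKM in untreated libraries, but EPCAM only 0.221 to 0.765. The lung genes ABCA3 (16.3 to 22.6 FPKM untreated), LPCAT1 (19.9 to 24.9) and FOXA2 (16.9 to 19.2) were present, while SCGB1A1 (0 in all 8), SFTPC and NKX2-1 were at or near 0. The libraries numbered 5 stood apart from the rest of both groups: their scores on the second principal component (21.6% of the variance) were -31.7 and -30.6 against -7.03 to 24.9 for the others.

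CEBPB and CEBPD rose after dexamethasone, CEBPA fell, and CEBPG and CEBPE were not called. Of the 5 members 4 passed the filter, each in the untreated libraries alone, and 3 of these 4 were called against a background of 26.7% of all tested genes. CEBPB and CEBPD were among the 12.4% called higher and CEBPA among the 14.3% called lower. The same 3 members had groups with no overlap between libraries, as did 31.5% of tested genes. In RNA from whole wells, more RNA per cell and more cells that express a gene cannot be told apart.

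CEBPB, the most abundant member, read 47.3, 50.8, 50.8 and 56.6 FPKM in untreated replicates 1, 3, 4 and 5. It read 135, 160, 151 and 172 FPKM in the dexamethasone libraries. The lowest treated library was well above the highest untreated one, and replicate 5 was the highest of each group. The mean went from 51.4 ± 3.85 to 155 ± 15.7 FPKM (SD, n = 4), a 3.01-fold ratio of means. The log2 fold change was 1.56 (standard error 0.175, 95% interval 1.17 to 1.96, limma adjusted p = 0.000189), and 1.45% of tested genes had a larger rise. Before treatment 5.84% of all 19158 measured genes, tested or not, had a higher mean FPKM than CEBPB.

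CEBPD (ENSG00000221869, chr8:47736909-47739086, minus strand), the other inducible member, started at a lower level and took the same direction. Its untreated values were 8.81, 8.64, 9.48 and 11.5 FPKM, and its values with dexamethasone were 18.6, 21.1, 22.2 and 24.9 FPKM. All 4 treated libraries lay above all 4 untreated ones. The mean rose from 9.6 ± 1.3 to 21.7 ± 2.62 FPKM (SD, n = 4), a 2.26-fold ratio. The log2 fold change was 1.10 (standard error 0.189, 95% interval 0.67 to 1.52, limma adjusted p = 0.0024), and 3.05% of tested genes rose more. The intervals of CEBPB and CEBPD overlapped, and the difference between their responses was not tested.

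CEBPA, the member tied to differentiation and growth restraint, moved the other way. It read 6.36, 5.81, 6.59 and 7.91 FPKM untreated and 3.46, 3.35, 2.81 and 4.52 FPKM with dexamethasone. Every treated library was below every untreated one, and replicate 5 was again the highest of each group. The mean fell from 6.67 ± 0.889 to 3.54 ± 0.717 FPKM (SD, n = 4), so the untreated level was 1.89 times the treated level. The log2 fold change was -0.77 (standard error 0.197, 95% interval -1.21 to -0.33, limma adjusted p = 0.0179), and 7.08% of tested genes fell more. This call depended on which treated library was left out: without dexamethasone replicate 1, 3 or 4 the log2 fold change was -0.75, -0.74 or -0.68 and the limma adjusted p was 0.0509, 0.0554 or 0.0591, whereas without dexamethasone replicate 5 they were -0.90 and 0.00851. With the trend on transcript GC content removed it was -0.50 (standard error 0.0941, limma adjusted p = 0.00241).

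CEBPG, the dimer partner without a typical activation domain, read 13.2, 13.5, 14.3 and 4.34 FPKM in the untreated libraries and 12.9, 11.3, 12.2 and 6.95 FPKM in the treated ones. Replicate 5 was the lowest library of each group, and the groups overlapped. The means were 11.3 ± 4.67 and 10.8 ± 2.67 FPKM (SD, n = 4), and the log2 fold change was 0.03 (standard error 0.275, limma adjusted p = 0.952). Its 95% interval ran from -0.59 to 0.65 in this fit. Without the untreated replicate 5 the log2 fold change was -0.27 (limma adjusted p = 0.246), and without both libraries numbered 5 it was -0.13 (limma adjusted p = 0.227). CEBPE, the granulocyte member, was listed at 0 in 7 libraries and at 0.0244 FPKM in dexamethasone replicate 4. It did not pass the filter and has no fold change.

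**Figure D1:**
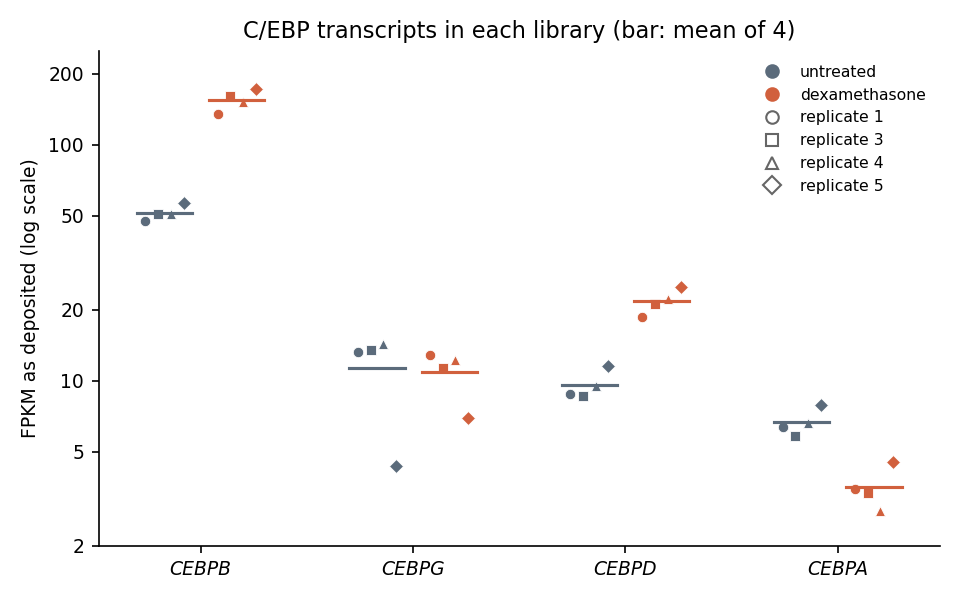
FPKM of CEBPA, CEBPB, CEBPD and CEBPG in each of the 8 libraries on a log axis; marker shapes give the replicate number, colours the group, and bars the group means. CEBPB and CEBPD do not overlap between groups and are higher with dexamethasone, CEBPA does not overlap and is lower, and the CEBPG libraries numbered 5 (4.34 and 6.95 FPKM) lie under the others.

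The members fell into 2 patterns across the libraries numbered 5. CEBPA, CEBPB and CEBPD, the GC-rich members, were highest in replicate 5 in 6 of 6 groups, and CEBPG, the GC-poor member, was lowest there in 2 of 2. Removing the GC trend of each library gave log2 fold changes of 1.83 for CEBPB (standard error 0.0737) and 1.36 for CEBPD (standard error 0.0738), and of -0.21 for CEBPG (standard error 0.157, limma adjusted p = 0.325). What part GC content has in the levels of replicate 5 was not tested. Without both libraries numbered 5 the log2 fold changes were 1.60 for CEBPB, 1.15 for CEBPD and -0.76 for CEBPA, and all 3 kept their calls with limma.

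**Figure D2:**
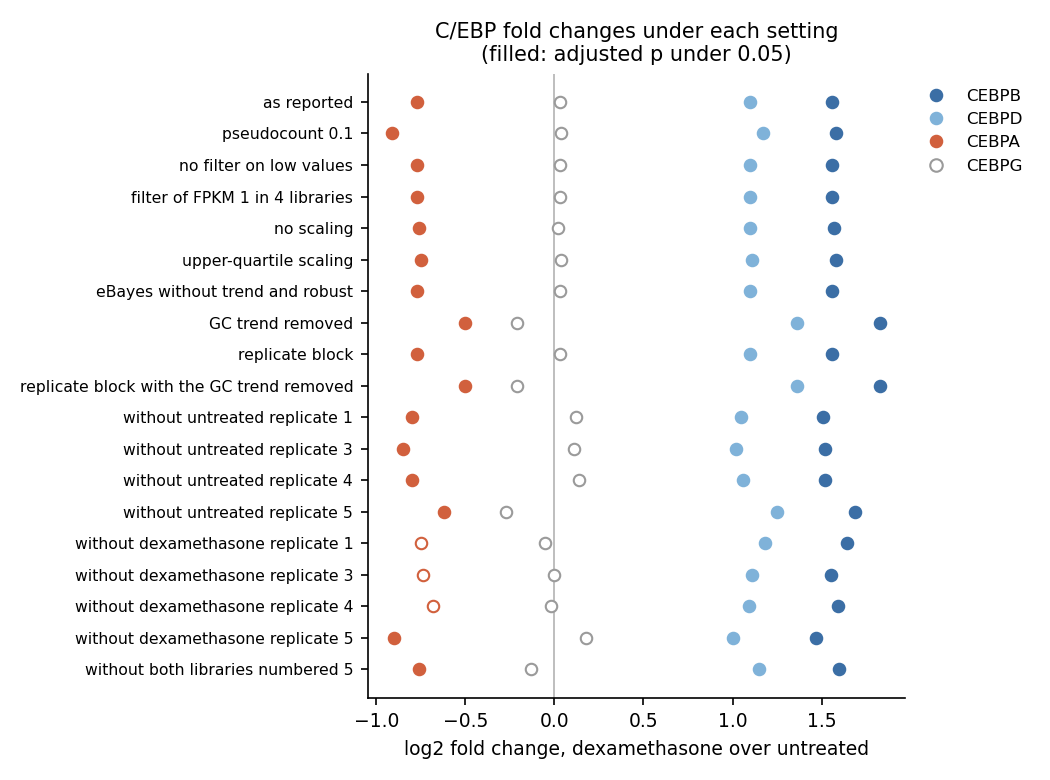
Log2 fold change (dexamethasone over untreated) of the 4 tested members, with 1 line for the value as reported and for each of the 18 alternatives; filled points have an adjusted p under 0.05. CEBPB stays between 1.47 and 1.83 and CEBPD between 1.00 and 1.36, CEBPA stays between -0.91 and -0.50 with 3 open points, and CEBPG lies on both sides of 0.

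Before treatment the order of mean FPKM was CEBPB, CEBPG, CEBPD, CEBPA and CEBPE. CEBPG overlapped both CEBPD and CEBPA in that order because of its low value in replicate 5, while CEBPD and CEBPA did not overlap each other. After dexamethasone the order was CEBPB, CEBPD, CEBPG, CEBPA and CEBPE, and none of these neighbours overlapped. CEBPD thus stood above CEBPG in all 4 treated libraries, whereas in untreated replicates 1, 3 and 4 it stood under CEBPG.

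The family's summed level rose and its make-up shifted towards CEBPB; these sums and shares are descriptions of the same values, with no test. The sum of the 5 genes was 75.7, 78.7, 81.2 and 80.3 FPKM untreated and 170, 196, 188 and 209 FPKM with dexamethasone, with means of 79.0 ± 2.43 and 191 ± 16.2 (SD, n = 4). CEBPB made up 62.5%, 64.5%, 62.6% and 70.5% of the untreated sum and 79.4%, 81.7%, 80.2% and 82.6% of the treated sum. Its treated shares were all above its untreated shares. CEBPA made up 8.44% ± 1.03 of the untreated sum and 1.85% ± 0.307 of the treated sum (SD, n = 4). CEBPD held 12.1% ± 1.46 and 11.4% ± 0.578, groups that overlapped, so its share was near level while its FPKM rose. CEBPG went from 14.4% ± 5.99 to 5.79% ± 1.8 (SD, n = 4), with its untreated replicate 5 at 5.4%.

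The balance of the inducible members against CEBPA also shifted. The ratio of CEBPB to CEBPA was 7.43, 8.74, 7.71 and 7.16 in the untreated libraries and 39.0, 47.7, 53.8 and 38.1 in the treated ones. The mean ratio went from 7.76 ± 0.689 to 44.6 ± 7.47 (SD, n = 4), with no overlap. The ratio of CEBPD to CEBPA went from 1.44 ± 0.0423 to 6.28 ± 1.17, and that of CEBPB to CEBPD from 5.38 ± 0.386 to 7.13 ± 0.345 (SD, n = 4). In each library a ratio between members cancels the library's scale. CEBPA, CEBPB and CEBPD have nearly the same GC content, so their ratios also compare genes of like composition.

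**Figure D3:**
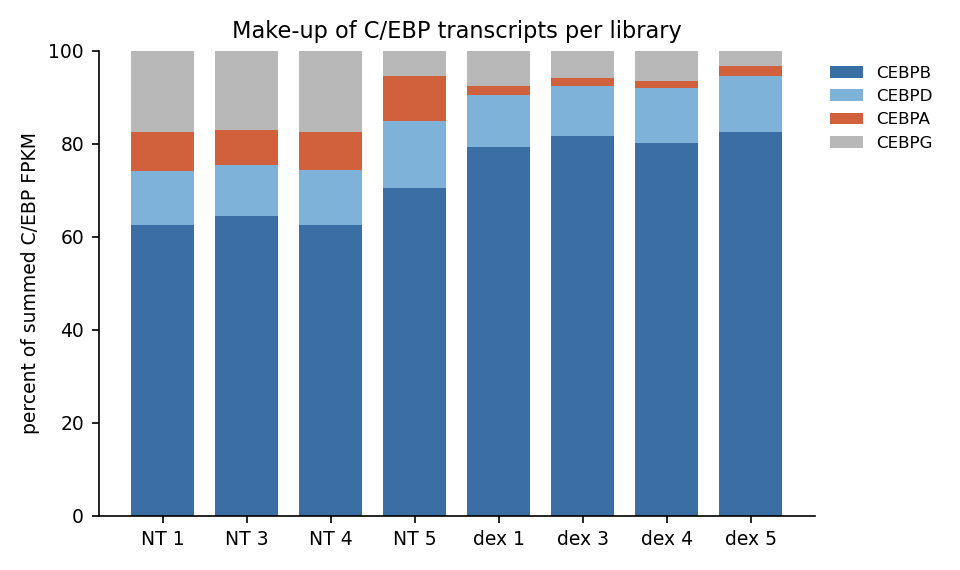
Share (%) of each C/EBP gene in the summed FPKM of the 5 genes, 1 stacked bar per library; CEBPE is too low to see. CEBPB takes 62.5% to 70.5% of the sum in untreated libraries and 79.4% to 82.6% with dexamethasone, and the CEBPA part shrinks from 8.44% to 1.85% on average.

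The genes whose profile ran closest to a called member were named by the smallest root mean square log2 difference over the 8 libraries, each gene centred on its own mean. For CEBPB these were ID1, an inhibitor of basic helix-loop-helix factors (0.0846), TNS4 (0.0854) and the adrenergic receptor gene ADRA1B (0.0901), against a median of 0.848 over all genes. For CEBPD they were the thyroid hormone receptor gene THRA (0.0649), the mitochondrial sulphide-oxidising enzyme gene SQOR (0.0703) and HPCAL1 (0.0757), against 0.664. ID1 went from 73.2 ± 6.5 to 205 ± 14.6 FPKM and THRA from 10.2 ± 1.4 to 23.9 ± 2.4 FPKM (SD, n = 4). For CEBPA they were ADAT3 (0.0749), APEX2 (0.0772) and NDOR1 (0.0795), against 0.519. ADAT3, the partner subunit of a transfer RNA deaminase, went from 3.9 ± 0.677 to 1.95 ± 0.256 FPKM (SD, n = 4). ADAT3 lies inside SCAMP4 on the same strand, and THRA, APEX2, NDOR1 and SQOR also overlap other genes, so their counts may hold shared reads. The calls of APEX2 and NDOR1 were lost, like that of CEBPA, without dexamethasone replicate 1, 3 or 4, and that of NDOR1 also without untreated replicate 1 or 4.

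The genes next to the members on the chromosome were looked at in the same libraries. SPIDR, a DNA repair gene 603 bases from CEBPD, had a log2 fold change of 0.07 (limma adjusted p = 0.748), and PRKDC on the other side 0.24 (limma adjusted p = 0.462). PTPN1, 318 kb after CEBPB, had 0.20 (limma adjusted p = 0.235), and the readthrough gene TMEM189-UBE2V1, 37.0 kb before it, was not called. PEPD, 4.26 kb after CEBPG, had 0.34 (limma adjusted p = 0.222), and SLC7A10 before CEBPA was at most 0.0578 FPKM. None of these measured neighbours of CEBPA, CEBPB, CEBPD and CEBPG was called, apart from CEBPA itself, which neighbours CEBPG. Beside CEBPE the result was different. SLC7A8, which encodes a neutral amino acid transporter and lies 5.68 kb from CEBPE, read 0.0374, 0.0824, 0.062 and 0.0376 FPKM untreated and 6.28, 6.11, 5.65 and 6.4 FPKM with dexamethasone. SLC7A8 passed the filter only through the treated libraries, so these levels are given as a description with no test. CEBPE was at or near 0 in the same libraries.

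Other bZIP proteins can pair with C/EBPs or bind related sites, and their genes moved in both directions. Of 18 such genes 17 were tested: 4 were called higher, 7 lower and 6 were not called, with a median log2 fold change of -0.33 against 0.01 for all tested genes, of which 12.4% were called higher and 14.3% lower. BATF2, among the genes called lower, passed the filter only through the untreated libraries, so its call is no support. HLF, among those not called, passed only with the treated libraries. FOSL1, an AP-1 subunit, fell from 27.4 ± 0.911 to 7.72 ± 0.674 FPKM (log2 fold change -1.71, standard error 0.137, limma adjusted p = 2e-05). FOS, the immediate early AP-1 subunit, rose from 1.05 ± 0.342 to 3.78 ± 0.34 FPKM (1.22, standard error 0.17, limma adjusted p = 0.000673). FOSL2 rose from 42.3 ± 3.4 to 71.6 ± 2.91 FPKM (0.75, standard error 0.12, limma adjusted p = 0.00148). So among 3 FOS-family genes 1 fell and 2 rose. The higher count was 3 without any 1 of 5 single libraries (untreated replicates 1 and 3, dexamethasone replicates 1, 3 and 4). The lower count was 5 without untreated replicate 3 or any of those 3 treated libraries.

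DDIT3 and ATF4, stress-linked partners of C/EBPs, were not called, whereas the stress-induced ATF3 was among the genes called lower (log2 fold change -0.61, standard error 0.107, limma adjusted p = 0.00263). DDIT3 (CHOP), a C/EBP relative that blocks C/EBP binding by pairing with it, read 3.6, 3.65, 3.03 and 3.14 FPKM untreated and 2.06, 2.96, 2.32 and 2.57 FPKM with dexamethasone. These groups did not overlap, but the log2 fold change of -0.33 (standard error 0.133) had a limma adjusted p of 0.0971. DDIT3 also overlaps annotated neighbours such as MARS1. ATF4, the activator of the amino acid response, went from 80.3 ± 4.31 to 61.2 ± 3.32 FPKM (log2 fold change -0.39, standard error 0.131, limma adjusted p = 0.0534).

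**Figure D4:**
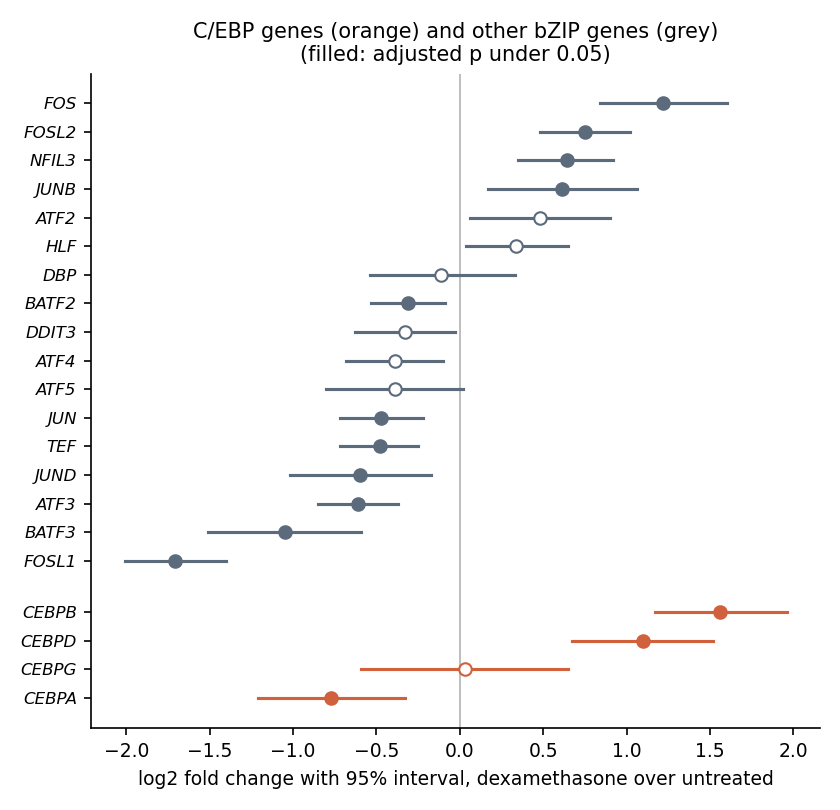
Log2 fold change with its 95% interval for the 17 tested bZIP partner genes (grey) and the 4 tested C/EBP genes (orange); filled points have an adjusted p under 0.05. Both sets hold genes on either side of 0, from FOSL1 at -1.71 to FOS at 1.22 and from CEBPA at -0.77 to CEBPB at 1.56.

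Known regulators of C/EBP synthesis, activity and decay were represented by 19 genes, of which 18 were tested. Among them 4 were called higher and 1 lower, with a median log2 fold change of 0.11. Over all tested genes 26.7% were called, so the 5 of 18 called here were near the background and are no result about regulators as a group. The 4 higher genes included 3 receptor chains upstream of CEBPB and CEBPD. IL6R, the interleukin-6 receptor, rose from 3.48 ± 1.2 to 15.1 ± 3.03 FPKM (log2 fold change 1.87, standard error 0.173, limma adjusted p = 5.67e-05). IL1R1, the interleukin-1 receptor, rose from 4.58 ± 1.4 to 12.5 ± 2.65 FPKM (1.30, standard error 0.178, limma adjusted p = 0.000614). IL6ST, the signalling chain shared by interleukin-6 family receptors and named after its value was seen, rose with a log2 fold change of 1.39 (standard error 0.339, limma adjusted p = 0.0141), although its groups overlapped in FPKM. TRIB1, an adaptor that brings C/EBPα to the ubiquitin ligase COP1, rose from 11.7 ± 0.747 to 18.6 ± 0.847 FPKM (0.62, standard error 0.113, limma adjusted p = 0.00303). COP1 itself was at 12.1 ± 2.73 and 11.4 ± 1.15 FPKM and was not called. Nor were STAT3, which relays interleukin-6 signals to CEBPD (81.6 ± 5.66 and 96.8 ± 7.54 FPKM), and NR3C1, the glucocorticoid receptor (18.1 ± 6.23 and 20.7 ± 8.69 FPKM). The 1 gene called lower was CDK2, a cyclin-dependent kinase, also named after its value was seen (log2 fold change -0.59, standard error 0.187, limma adjusted p = 0.0426). Its call was lost when any 1 library other than dexamethasone replicate 4 was left out.

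Acute-phase genes are the classic targets of C/EBPβ and C/EBPδ in liver. Of 20 listed genes 10 passed the filter, 5 of them (SAA1, SAA2, CP, FGG and SERPINA3) only with the treated libraries. That selection favours a rise, so their calls are no support. The other 5 (C3, FGA, FGB, LCN2 and CFB) passed in the untreated libraries alone, and each of these was called higher, as were 12.4% of all tested genes. Among the genes left out, CRP, SAA4 and ORM2 were at 0 in all 8 libraries. C3, the central complement protein, rose from 7.21 ± 0.832 to 138 ± 13.2 FPKM (log2 fold change 4.08, standard error 0.17, limma adjusted p = 3.68e-07). FGA, the fibrinogen alpha chain, rose from 5.72 ± 0.645 to 77.6 ± 9.87 FPKM (3.54, standard error 0.119, limma adjusted p = 7.15e-08). SAA1, serum amyloid A1, read 0.193, 0.0294, 0 and 0 FPKM untreated and 19.6, 21.6, 20.3 and 28.7 FPKM with dexamethasone, given as a description with no test. SAA1 and SAA2 are near-identical copies, so reads may have been split between them, and C3 overlaps GPR108. The call of LCN2 was lost without untreated replicate 1, 3 or 4 or dexamethasone replicate 3.

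**Figure D5:**
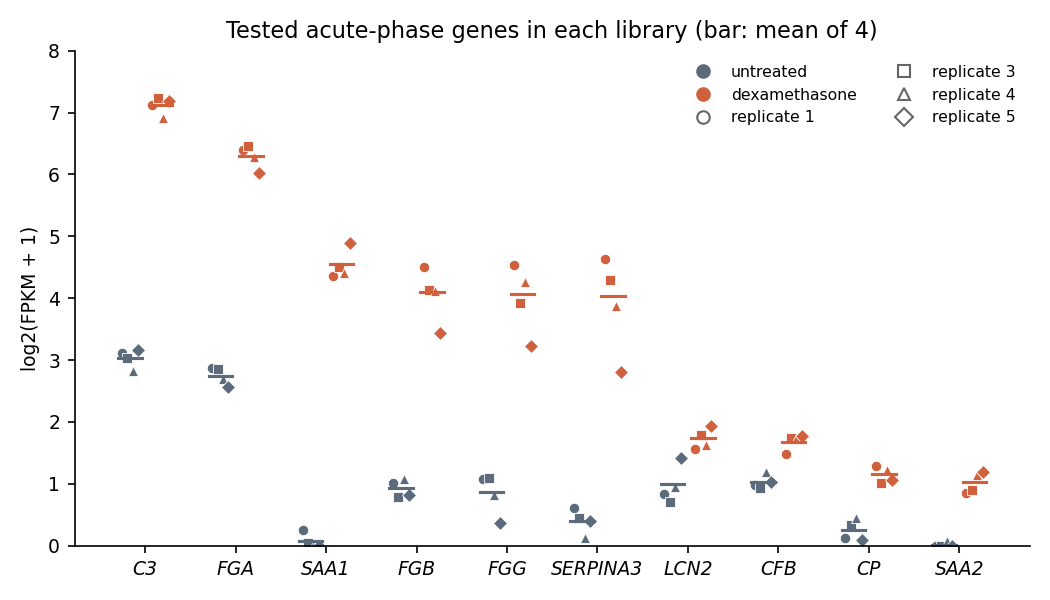
Level as log2(FPKM + 1) of the 10 tested acute-phase genes in each of the 8 libraries; marker shapes give the replicate number, colours the group, and bars the level of the group's mean FPKM. Levels run from C3 (7.21 and 138 FPKM on average) down to SAA2 (0.0124 and 1.04 FPKM). SAA1, SAA2, CP, FGG and SERPINA3 passed the filter only with the treated libraries, a selection that favours a rise. The groups of C3, FGA, FGB, LCN2 and CFB do not overlap and are higher with dexamethasone, as for 12.3% of all tested genes.

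Targets that C/EBPs are known for in fat and liver were mostly low or not called in A549. Of 18 listed genes 16 were measured and 6 were tested, with 2 called higher, 0 lower and a median log2 fold change of -0.13; at 26.7% of all tested genes called, 2 of 6 is near the background. CPS1, the urea cycle enzyme carbamoyl-phosphate synthetase, rose from 6.49 ± 1.66 to 12.9 ± 1.55 FPKM (log2 fold change 0.92, standard error 0.136, limma adjusted p = 0.000879). INSR, the insulin receptor, rose from 2.76 ± 0.752 to 4.11 ± 0.353 FPKM (0.47, standard error 0.132, limma adjusted p = 0.0258), a call lost without untreated replicate 4 or dexamethasone replicate 1, 3 or 4. SCD, a fatty acid desaturase, was at 322 ± 37.1 and 253 ± 27.8 FPKM and was not called (-0.35, standard error 0.136, limma adjusted p = 0.0849). PPARG, which C/EBPβ and C/EBPδ switch on in developing fat cells, was at 16.1 ± 1.49 and 15.6 ± 1.23 FPKM (-0.04, standard error 0.118, limma adjusted p = 0.818). ADIPOQ, LEP and LPL were at 0 in all 8 libraries.

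Lung epithelial genes linked to CEBPA gave few values that could be tested. Of 16 genes 5 were tested, 4 of which passed in the untreated libraries alone, and among these 4 none was called higher and 1 lower (14.3% of all tested genes were lower). SFTPD, surfactant protein D, was at 0.129 ± 0.0678 FPKM untreated and 3.04 ± 0.535 FPKM with dexamethasone (SD, n = 4); it passed the filter only through the treated libraries, so no test is given. FOXA2, a forkhead factor that acts with C/EBPα in lung and liver, fell from 18.0 ± 0.922 to 7.16 ± 1.14 FPKM (-1.23, standard error 0.172, limma adjusted p = 0.000706). FOXA2 thus moved in the same direction as CEBPA, with no overlap between groups. LPCAT1, which makes surfactant lipid, was not called (0.35, standard error 0.212, limma adjusted p = 0.247).

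Inflammatory genes with known C/EBPβ sites were low, lower after dexamethasone or, for the chemokine CXCL1, not called, while CEBPB itself rose. Of 15 genes 14 were measured and 4 tested, with 0 called higher, 3 lower and a median log2 fold change of -0.95, beside 12.4% higher and 14.3% lower over all tested genes. CCL2, a monocyte chemokine, fell from 20.8 ± 2.98 to 3.94 ± 0.855 FPKM (log2 fold change -2.15, standard error 0.176, limma adjusted p = 2.64e-05). PTGS2, the inducible cyclooxygenase, fell from 3.53 ± 1.26 to 0.771 ± 0.199 FPKM (-1.31, standard error 0.164, limma adjusted p = 0.00036). CXCL8, a neutrophil chemokine, fell by 0.59 on the log2 scale (standard error 0.183, limma adjusted p = 0.0389). Its groups overlapped, and the call was lost without untreated replicate 1, 3 or 4 or dexamethasone replicate 3, 4 or 5. IL6 was at 0.0679 ± 0.0298 and 0.0261 ± 0.0427 FPKM (SD, n = 4) and was not tested.

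Amino acid response genes, which ATF4 drives together with C/EBPβ or C/EBPγ, were tested in full. Of 15 genes 1 was called higher and 6 lower, with a median log2 fold change of -0.19, beside 12.4% higher and 14.3% lower over all tested genes. DDIT4, an inhibitor of mTORC1 that glucocorticoids also induce, rose from 52.1 ± 4.49 to 228 ± 7.82 FPKM (log2 fold change 2.11, standard error 0.161, limma adjusted p = 1.66e-05). ASNS, asparagine synthetase, fell from 18.6 ± 1.74 to 9.19 ± 0.851 FPKM (-0.95, standard error 0.12, limma adjusted p = 0.000355). PHGDH, the first enzyme of serine synthesis, fell from 22.1 ± 3.75 to 6.9 ± 2.13 FPKM (-1.58, standard error 0.257, limma adjusted p = 0.00171). The remaining lower genes were PSAT1, SLC3A2, SLC7A5 and ATF3, and the call of SLC3A2 was lost without dexamethasone replicate 1, 3 or 4.

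Markers of other cells that use C/EBPs were at or near 0. Of 12 myeloid markers 11 were measured, 5 of them at 0 in all 8 libraries, including PTPRC and CSF3R, and their summed level was 2.33 to 3.31 FPKM untreated and 1.51 to 2.31 FPKM with dexamethasone. CD14 was the largest part of that sum and fell (log2 fold change -0.58, standard error 0.148, limma adjusted p = 0.018). Its call was lost without dexamethasone replicate 1, 3 or 4. ELANE (mean 0.0276 and 0.187 FPKM), PRTN3 (0.166 and 0.362) and LYZ had higher means with dexamethasone, and SPI1 and MPO had lower ones. These genes were all under the filter and were not tested. The 5 measured adipocyte and hepatocyte markers summed to 0 untreated and 0.0889 to 0.171 FPKM with dexamethasone, and ADIPOQ and LEP were at 0 in all 8 libraries. Of 7 markers of fibroblasts, endothelium and lymphocytes only COL1A1 passed the filter, and it did so only through the untreated libraries. COL1A1 was at 2.03 ± 0.188 FPKM untreated and 0.367 ± 0.0765 FPKM with dexamethasone (SD, n = 4), given as a description with no test. Among 5 epithelial markers EPCAM, at 0.538 ± 0.264 and 0.253 ± 0.101 FPKM (SD, n = 4), did not pass the filter and 4 were tested. CDH1, the epithelial cadherin, rose from 6.8 ± 1.51 to 18.2 ± 1.45 FPKM, a 2.68-fold ratio of means (limma adjusted p = 8.15e-05), and the keratin KRT19 fell from 156 ± 30.6 to 54.7 ± 8.28 FPKM (log2 fold change -1.49, standard error 0.234, limma adjusted p = 0.0014). KRT8, at 1453 ± 435 and 1878 ± 265 FPKM, and KRT18 were not called, and these 2 overlap each other in the annotation.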

How the data were processed

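RNA from 8 wells of A549 cells (4 untreated, 4 with dexamethasone) was sequenced as ribosomal RNA-depleted paired-end libraries. Per the submitters' processing notes, FastQC 0.11.9, cutadapt 3.4, STAR 2.7.9a, featureCounts (Subread 2.0.3) and DESeq2 1.32.0 were used with GRCh38; the annotation release and strand setting are not given in the sources used here. The deposited values are not whole numbers and were read as FPKM made by the authors, although their table names call them counts; the normalization is inferred, and depth per library is not given in the tables. Whole counts were not recovered, so no count model was used. After rescaling at the best of many trial depths, 38.0% to 43.7% of low values came within 0.1 of whole. Chance gives 20% at a single fixed depth, and the median over the trial depths was 16.6% to 18.4%. What chance gives for the best depth was not worked out.

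FPKM are printed as deposited. Fold changes come from log2(FPKM + 1) after trimmed-mean scaling (trim 0.3 and 0.05), over genes with at least 0.5 FPKM in at least 4 libraries, fitted on group only with limma 3.58.1 in R 4.3.3 (trend and robust, two-sided) and Benjamini-Hochberg adjusted over 12161 genes, with a threshold of 0.05. The fit was tested on simulated data. A permutation test of 1 gene in 4 against 4 libraries cannot give an exact p under 0.0286. Transcript features were from GENCODE and matched 19065 of 19158 genes; promoter windows were from RefSeq. Alternatives were the pseudocount, filter, scaling, eBayes options, a spline on GC content, a replicate block and leaving out libraries. For each list the text names the 3 tested genes with the smallest p, for each marker list those at 1 FPKM or more in at least 4 libraries and, for each called member, the 3 genes closest in pattern. Other list genes were named after their values were seen. The members and lists were chosen with earlier results of these data known.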

Additional observations from a re-analysis of the deposited data

Results flagged for a closer look

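In groups of 4 libraries, 83 groups over 42 genes were looked at for 1 library far from the other 3, and 7 were found, where chance gives about 1 in 20 groups, or 4. Of the 7, 5 were the untreated replicate 5. Among the members, CEBPG read 4.34 FPKM in untreated replicate 5 against 13.2 to 14.3 in the other 3, and CEBPE read 0.0244 FPKM in dexamethasone replicate 4 against 0 in the other 3. In untreated replicate 5, INSR read 1.64 FPKM against 3.0 to 3.24, SCD 267 against 337 to 346, CXCL8 0.6 against 1.91 to 2.08, and KRT18 1270 against 805 to 872. SAA1 read 0.193 FPKM in untreated replicate 1 against 0 to 0.0294 in the other 3 untreated libraries.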

How the results depend on the processing

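Across 18 alternatives CEBPB (log2 fold change 1.47 to 1.83) and CEBPD (1.00 to 1.36) kept their direction and call in 18, and CEBPA (-0.91 to -0.50) kept its direction in 18 and its call in 15. Leaving out 1 library gave CEBPA -0.90 to -0.62 (limma adjusted p 0.00851 to 0.0591). CEBPG was never called, and its 0.03 turned to -0.21 with the GC trend removed, -0.27 without untreated replicate 5, -0.05 and -0.02 without dexamethasone replicate 1 or 4 and -0.13 without both libraries numbered 5; leaving out 1 library gave -0.27 to 0.18. The cause was not tested. KRT18 (-0.02) was 0.18 with the GC trend removed, 0.21 without untreated replicate 5, 0.11 without the replicate 5 pair, and 0.05 without dexamethasone replicate 1. Among 666 values of 37 other named genes, 620 kept direction and side of the threshold. The counts of all genes, 1513 higher and 1738 lower, became 2630 and 2886 without both libraries numbered 5, and 1054 to 1780 and 1263 to 2102 on leaving out 1 library. Same-numbered libraries of the 2 groups deviated together with r of 0.292, 0.066, 0.315 and 0.713 for replicates 1, 3, 4 and 5. The 2 libraries numbered 5 correlated best with each other, but not every library correlated best with its own number. Pairing was therefore not assumed in the main fit. With the replicate block 2925 genes were higher and 2822 lower, and with the block and the GC trend removed 2521 and 2780; the latter block gave CEBPG -0.21 (limma adjusted p = 0.0946) and KRT18 0.18. Genes of the fixed lists called higher and lower were 22 and 17, and 26 and 25 with the block. Over all tested genes 12.4% were higher and 14.3% lower, and 24.1% and 23.2% with the block. The list counts include genes that passed the filter only through 1 group, such as SAA1 and BATF2, and are no result about the lists. The block changed no member's call; DDIT3 was called with it (limma adjusted p = 0.0408). The number of libraries and the inferred unit limit precision, and values under the filter were not tested.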
